A study of Zea mays with 8 samples.

Results

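The genes that carry sucrose out of a maize leaf, and those that cleave sucrose where it is used, were followed in leaves treated with SLB or with a control solution. The set holds 7 of the 44135 gene identifiers in the deposited table, taken by identifier. On the source side stand 4 genes, the 3 copies of SWEET13 (Zm00001d023677, Zm00001d023673 and Zm00001d041067) and SUT1 (Zm00001d027854). On the sink side stand 3 genes, the sucrose synthases sh1 (Zm00001d045042) and sus1 (Zm00001d047253) and the cell wall invertase mn1 (Zm00001d003776). The symbols came with the list of identifiers (B73 RefGen_v4). They are not in the deposited table and could not be checked against the reference table, which matched none of its identifiers. Positions in that build are not given here.

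Messenger RNA was sequenced from 8 leaf libraries of the cultivar Golden Queen (Zea mays). The SLB group had 4 libraries from leaves given a spore suspension, SLB being the usual short form for southern leaf blight, which the fungus Cochliobolus heterostrophus causes. The control group had 4 libraries from leaves given 0.1% Tween 20, a detergent, in water. In both groups plants were 14 d old, the sampled leaf was leaf 4, which had emerged but was still expanding, and the time was 24 h. The labels do not say how many plants a library holds, nor whether the spores were suspended in Tween 20. The p-values therefore measure the spread between libraries, part of which may be technical. The question put to these genes was whether the source and the sink side differed between SLB and control leaves.

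Sucrose made in leaf cells is loaded into the phloem in maize through the cell wall space. SWEET proteins are carriers that let sucrose leave a cell along its gradient, and SUT1 is a carrier that takes sucrose up into the phloem together with protons. Sucrose synthase splits sucrose reversibly into fructose and UDP-glucose, while cell wall invertase splits it irreversibly outside the cell into glucose and fructose. The genes sh1 (shrunken1) and mn1 (miniature1) are best known from kernels, which import sucrose and shrink or stay small when either gene is lost. A leaf that is still expanding changes from importing sucrose to exporting it.

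Values were FPKM (fragments per kilobase of transcript, scaled to mapped fragments). The FPKM of all genes summed to between 706734 and 755209 in SLB libraries and between 1415306 and 2118483 in controls, so a difference in one gene depends on how libraries are scaled. Across the 19407 genes tested, the log2 fold change had a median of 0.69 as deposited and 0.02 after median-ratio scaling, which sets the typical gene to no change. That median was 0.12 after quantile normalization and 1.69 with libraries set to equal totals. For this reason each gene is also given relative to the other genes of its own library, by ratio and by rank, which a factor common to a library does not move. The labelled tissue was not checked against leaf marker genes, since none of the identifiers could be named from the reference table.

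Of the 7 genes, 6 passed the filter on low values (at least 1 FPKM in at least 4 libraries), and each of the 6 was above 1 FPKM in all 8 libraries. Tests on them are from limma on log2(FPKM + 1), with Benjamini-Hochberg adjustment over all tested genes and a threshold of 0.05. By that test sh1 and sus1 rose, the SWEET13 copies Zm00001d023673 and Zm00001d041067 fell, and the copy Zm00001d023677 and SUT1 did not pass. The same test called 80.6% of all tested genes, 56.0% rising and 24.6% falling, so 4 called genes of 6 is no more than the background. The median log2 fold change of the 6 genes was 0.27, against 0.69 over all tested genes. What the genes show is in which of them moved, in which direction, and by how much relative to each other.

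**Figure D1:**
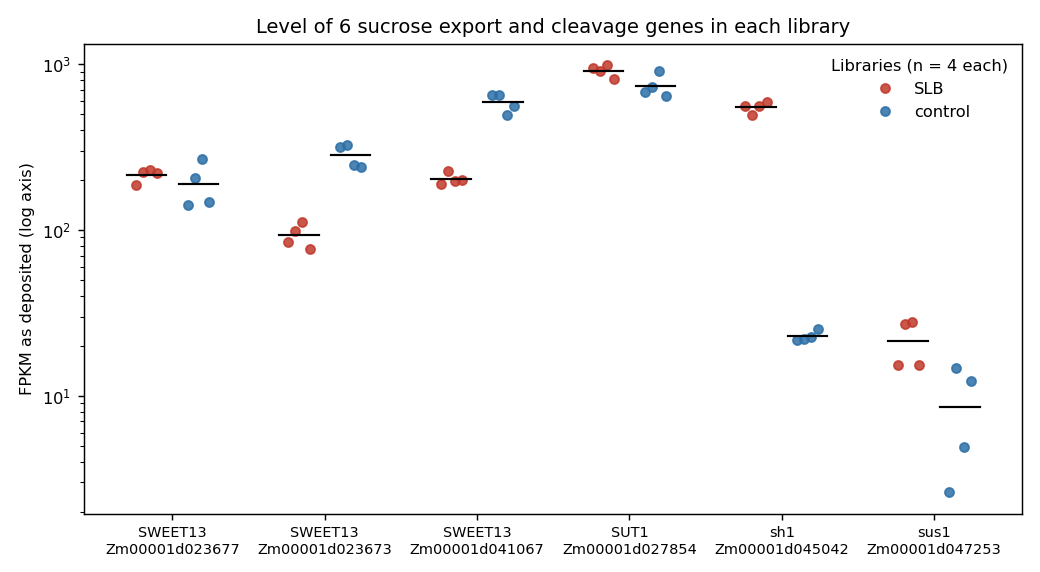
FPKM as deposited (log axis) of the 6 genes detected in all libraries, with 1 point per library, SLB left of control for each gene, and black lines at the arithmetic means. The 4 SLB libraries of sh1 lie between 494 and 588 FPKM and its 4 controls between 21.6 and 25.3 FPKM, while SUT1 and the SWEET13 copy Zm00001d023677 overlap between the groups.

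On the source side, the SWEET13 copies Zm00001d023673 and Zm00001d041067 fell in the values as deposited. The copy Zm00001d041067 had 190.3, 228, 196 and 199.9 FPKM in SLB replicates 1 to 4, against 649.6, 651, 492 and 558 FPKM in control replicates 1 to 4. Every SLB library lay below every control, as in 22.2% of all tested genes. Its mean was 204 ± 16.7 FPKM in SLB libraries and 588 ± 77.4 FPKM in controls (SD, n = 4 each), which is -1.52 as a log2 fold change (SE 0.14, adjusted p = 5.28e-06 by limma). In bulk tissue such as these leaves, fewer cells expressing a gene and less RNA per cell cannot be told apart.

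The copy Zm00001d023673 had 84.7, 98.9, 112 and 76.8 FPKM in SLB replicates 1 to 4, against 318, 324, 247 and 240.3 FPKM in control replicates 1 to 4. Here too no SLB library reached the lowest control. The mean was 93.0 ± 15.4 FPKM in SLB libraries and 282 ± 44.6 FPKM in controls (SD, n = 4 each), with -1.59 as the log2 fold change (SE 0.16, adjusted p = 1.25e-05 by limma). Both copies also fell past the threshold with median-ratio scaling and with quantile normalization. With libraries set to equal totals both stayed below 0 but missed the threshold, at a log2 fold change of -0.34 for Zm00001d023673 (adjusted p = 0.099) and -0.26 for Zm00001d041067 (adjusted p = 0.12). The median over all tested genes was 1.69 in that setting.

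The SWEET13 copy Zm00001d023677 did not share this fall. It had 186, 224, 230.1 and 221 FPKM in SLB replicates 1 to 4, against 141, 206, 266 and 148 FPKM in control replicates 1 to 4. Groups overlapped, since control replicate 3 lay above all SLB libraries and control replicates 1 and 4 below them. The mean was 215 ± 20.0 FPKM in SLB libraries and 190.0 ± 58.4 FPKM in controls (SD, n = 4 each). The log2 fold change was 0.22 with a 95% interval from -0.24 to 0.69 (limma adjusted p = 0.339). Its direction turned with the scaling, to -0.61 after median-ratio scaling (adjusted p = 0.00767), and it was 0.68 after quantile normalization (adjusted p = 0.0299) and 1.48 with equal totals (adjusted p = 0.000437).

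Within a library, the balance among the 3 SWEET13 copies differed between the groups whatever the scaling. The ratio of Zm00001d023677 to Zm00001d023673 was 2.19, 2.27, 2.06 and 2.88 in SLB replicates 1 to 4, against 0.442, 0.636, 1.07 and 0.615 in control replicates 1 to 4. The first copy was thus above the second in all 4 SLB libraries and in 1 of 4 controls. The ratio was 3.55 times as high with SLB, a log2 difference of 1.83 (SE 0.28, two-sided exact permutation p = 0.0286, adjusted p = 0.0429 over 6 ratios). That p is the smallest that 4 libraries against 4 allow. How many ratios of other gene pairs stood apart between the groups was not counted. Among single tested genes, the FPKM as deposited did not overlap in 75.5%.

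The ratio of Zm00001d023677 to Zm00001d041067 was 0.976, 0.983, 1.17 and 1.10 in SLB replicates 1 to 4, against 0.216, 0.316, 0.540 and 0.265 in control replicates 1 to 4. In SLB leaves these copies stood at about the same level, and in every control the second was the higher. The ratio was 3.36 times as high with SLB, a log2 difference of 1.75 (SE 0.29, exact permutation p = 0.0286, adjusted p = 0.0429). The ratio of the 2 falling copies, Zm00001d023673 to Zm00001d041067, ranged from 0.384 to 0.569 in SLB libraries and from 0.430 to 0.503 in controls. Its log2 difference was -0.08 (SE 0.13, exact permutation p = 0.686, adjusted p = 0.686), so no difference was detected at this spread.

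Together the 3 SWEET13 copies summed to 461, 551, 538 and 498 FPKM in SLB replicates 1 to 4, against 1108, 1181, 1005 and 946 FPKM in control replicates 1 to 4. As deposited, the mean of the sum in SLB libraries was 0.483 times that in controls. After median-ratio scaling all 3 copies had log2 fold changes below 0. With equal totals Zm00001d023677 was at 1.48, while Zm00001d023673 at -0.34 and Zm00001d041067 at -0.26 missed the threshold. The sum was not tested under these scalings, and a fall of the sum is not shown with equal totals. The copy Zm00001d023677 made up 42.0% ± 1.91 of the sum in SLB libraries and 18.0% ± 5.93 in controls (SD, n = 4 each). Zm00001d023673 made up 18.1% ± 2.18 in SLB libraries and 26.5% ± 1.86 in controls, and Zm00001d041067 made up 39.8% ± 2.31 in SLB libraries and 55.4% ± 4.66 in controls (SD, n = 4 each). The maize SWEET13 copies are close in sequence, and how fragments that match more than 1 copy were assigned is not given in the sources used here. Values of single copies are therefore less certain than their sum, which depends less on how such fragments were divided. The plants were of the cultivar Golden Queen, while the genome build was B73 RefGen_v4. The effect of this difference on the copies and on their sum was not tested.

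**Figure D2:**
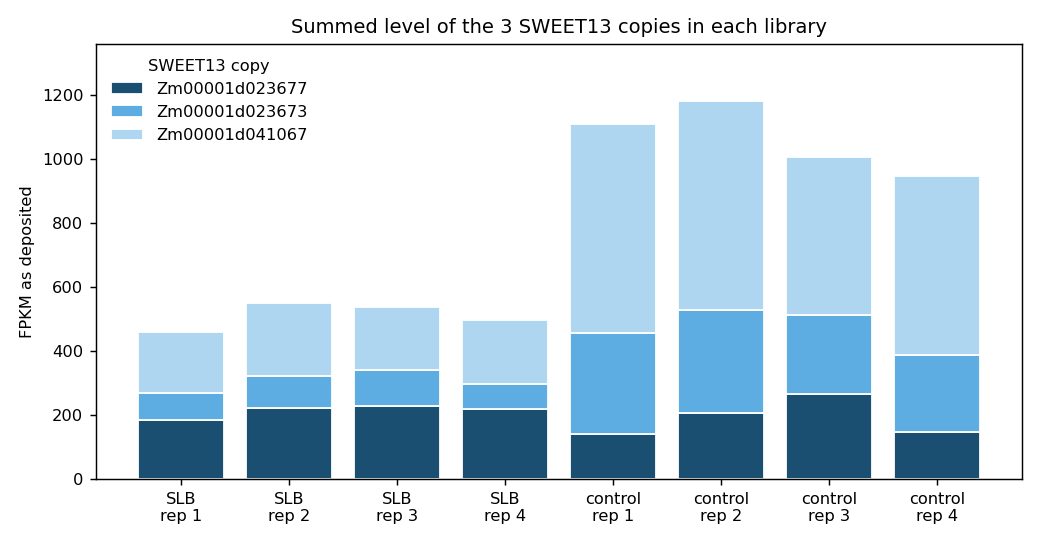
Stacked bars of FPKM as deposited for the 3 SWEET13 copies in each library, SLB libraries left of controls. The bars reach 461 to 551 FPKM in SLB libraries and 946 to 1181 FPKM in controls, and the darkest segment, Zm00001d023677, has a similar height in both groups.

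SUT1, the phloem loading carrier, had the highest level of the 7 genes in all 8 libraries. It had 947, 904, 982 and 817 FPKM in SLB replicates 1 to 4, against 675, 731, 902 and 639 FPKM in control replicates 1 to 4. They overlapped through control replicate 3, which lay above SLB replicate 4 and close to SLB replicate 2. The mean was 912 ± 71.0 FPKM in SLB libraries and 737 ± 117 FPKM in controls (SD, n = 4 each), a log2 fold change of 0.32 with a 95% interval from -0.02 to 0.66 (limma adjusted p = 0.0775). Without control replicate 3 it was 0.42 and passed (adjusted p = 0.0148). The scaling decided its direction, with -0.52 after median-ratio scaling (adjusted p = 0.012) and 1.82 after quantile normalization (adjusted p = 1.79e-05), and 1.58 with equal totals (adjusted p = 2.09e-05). With equal totals the median over all tested genes was 1.69, so SUT1 stood below the typical gene there.

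Set against SWEET13 in the same library, SUT1 was higher in SLB leaves. SUT1 was above the summed SWEET13 copies in all 4 SLB libraries and in 0 of 4 controls. The ratio of SUT1 to that sum was 1.79 ± 0.196 in SLB libraries and 0.700 ± 0.135 in controls (SD, n = 4 each), with values from 1.64 to 2.05 in SLB libraries and from 0.609 to 0.898 in controls. By FPKM, SUT1 and the summed SWEET13 copies thus stood in opposite order in the groups. These are RNA levels and not transport, and this ratio was not tested.

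On the sink side, sh1 rose further than any other of these genes. It had 555, 494, 560.4 and 588 FPKM in SLB replicates 1 to 4, against 21.6, 22.0, 22.5 and 25.3 FPKM in control replicates 1 to 4. Replicates lay close together in both groups, and the lowest SLB library stood far above the highest control. Its mean was 549 ± 39.6 FPKM in SLB libraries and 22.8 ± 1.67 FPKM in controls (SD, n = 4 each), which is 24.1 times as high with SLB. On the log2 scale this was 4.53 (SE 0.11, adjusted p = 5.09e-09 by limma), and it lay between 3.71 and 5.77 under the 3 other scalings.

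Few genes of the table rose as far as sh1. A rise of at least 16-fold past the threshold was found in 2.38% of tested genes, and 316 tested genes had a higher fold change than sh1. Of those 316, 33 had at least as high a mean FPKM in SLB libraries. The number with a higher fold change depends on the FPKM added before the log. It was 444 with 0.5 FPKM added in place of 1, and 908 with 0.1 FPKM.

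The second sucrose synthase, sus1, was low and variable. It had 15.2, 26.98, 27.9 and 15.3 FPKM in SLB replicates 1 to 4, against 2.615, 14.6, 4.89 and 12.2 FPKM in control replicates 1 to 4. SLB and control values came close without overlapping, with control replicate 2 just under SLB replicate 1. A separation with SLB higher was found in 53.3% of tested genes. The mean was 21.3 ± 7.04 FPKM in SLB libraries and 8.58 ± 5.74 FPKM in controls (SD, n = 4 each), or 1.40 as a log2 fold change (SE 0.46, adjusted p = 0.0171 by limma). The call did not hold after median-ratio scaling (0.64, adjusted p = 0.25), under quantile normalization (0.87, adjusted p = 0.108) or without control replicate 3 (1.24, adjusted p = 0.0532).

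The sucrose synthases also differed in how far they moved relative to each other. The ratio of sh1 to sus1 was 36.4, 18.3, 20.1 and 38.5 in SLB replicates 1 to 4, against 8.24, 1.51, 4.59 and 2.07 in control replicates 1 to 4. It was 8.13 times as high with SLB, a log2 difference of 3.02 (SE 0.62, exact permutation p = 0.0286, adjusted p = 0.0429). Of the summed FPKM of both genes, sh1 made up 96.2% ± 1.37 in SLB libraries and 74.7% ± 13.3 in controls (SD, n = 4 each).

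The cell wall invertase gene mn1 was hardly detected in either group. It was listed at 0.05 FPKM in SLB replicate 4 and at 0 in the other SLB libraries and in all controls. No fold change is given, and no difference was detectable at this depth, which is unknown. Beyond this low level in leaf 4, mn1 could not be compared.

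Source and sink genes were also compared directly within libraries. SUT1 was 1.71, 1.83, 1.75 and 1.39 times the level of sh1 in SLB replicates 1 to 4, against 31.3, 33.2, 40.2 and 25.3 times in control replicates 1 to 4. The log2 difference was -4.27 (SE 0.16, exact permutation p = 0.0286, adjusted p = 0.0429). For SUT1 to sus1 the ratio was 62.1, 33.5, 35.2 and 53.6 in SLB replicates 1 to 4, against 258, 50.01, 184 and 52.4 in control replicates 1 to 4. These values overlapped, and the log2 difference was -1.25 (SE 0.65, exact permutation p = 0.171, adjusted p = 0.206). The summed source genes stood at 2.51 ± 0.255 times the summed sink genes in SLB libraries and at 59.5 ± 14.8 times in controls (SD, n = 4 each). Within the sink sum, nearly all of this shift was carried by sh1, which exceeded the summed SWEET13 copies in 3 of 4 SLB libraries and in 0 of 4 controls.

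**Figure D3:**
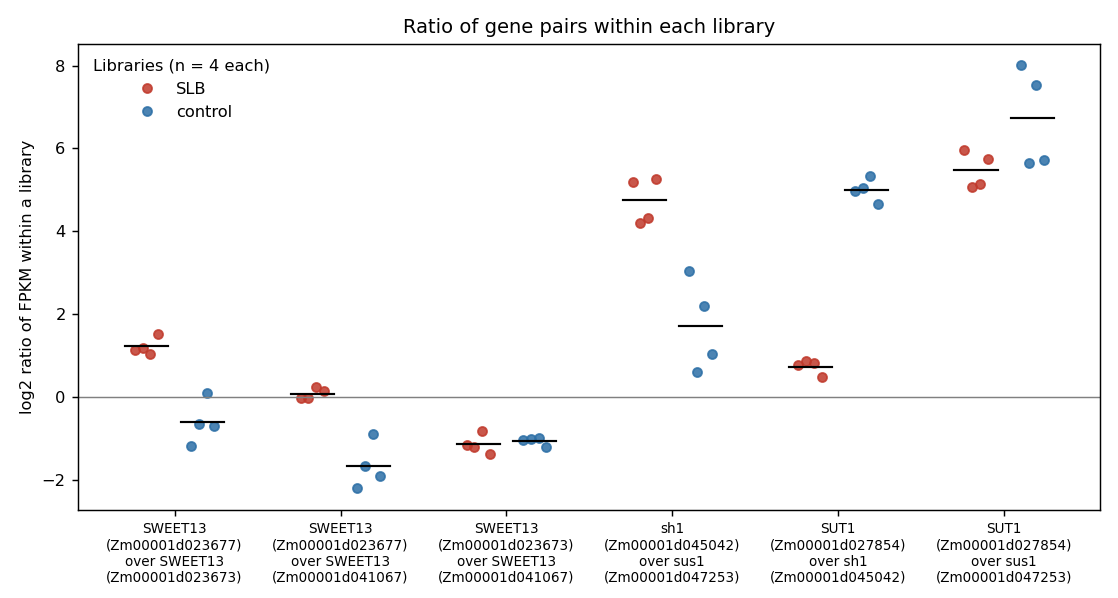
Log2 ratio of FPKM for 6 gene pairs within each library, SLB left of control for each pair, with black lines at the means of the log2 ratios. The groups stand apart in the pairs of Zm00001d023677 with each other SWEET13 copy, in sh1 over sus1 and in SUT1 over sh1, and they overlap in Zm00001d023673 over Zm00001d041067 and in SUT1 over sus1. How often other gene pairs stand apart was not counted.

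The order of the levels was different in the 2 groups. In SLB libraries it ran, by mean FPKM, from SUT1 (912) over sh1 (549), the SWEET13 copies Zm00001d023677 (215), Zm00001d041067 (204) and Zm00001d023673 (93.0), to sus1 (21.3) and mn1 (0.0125). The neighbours Zm00001d023677 and Zm00001d041067 overlapped, each being the higher in 2 of the 4 SLB libraries. In controls it ran from SUT1 (737) over Zm00001d041067 (588), Zm00001d023673 (282), Zm00001d023677 (190.0), sh1 (22.8) and sus1 (8.58) to mn1, which was listed at 0. Among controls, SUT1 overlapped Zm00001d041067 and Zm00001d023673 overlapped Zm00001d023677 across libraries.

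Ranks among all genes of a library gave the same picture for sh1 and another view of SUT1. Counted from the most abundant gene, sh1 ranked between 124 and 144 in SLB libraries and between 3941 and 4405 in controls. SUT1 ranked between 60 and 75 in SLB libraries and between 164 and 274 in controls, without overlap. SWEET13 Zm00001d041067 ranked between 429 and 580 in SLB libraries and between 253 and 297 in controls. Its copy Zm00001d023673 ranked between 1075 and 1603 in SLB libraries and between 476 and 663 in controls. The ranks of Zm00001d023677 (440 to 602 in SLB libraries and 493 to 1120 in controls) and of sus1 (4426 to 7270 in SLB libraries and 5669 to 12616 in controls) overlapped. A rank also moves when the genes above it change, so it is not a measure of the gene alone. How many of all genes had ranks without overlap was not counted. In FPKM as deposited, the groups did not overlap in 75.5% of tested genes.

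**Figure D4:**
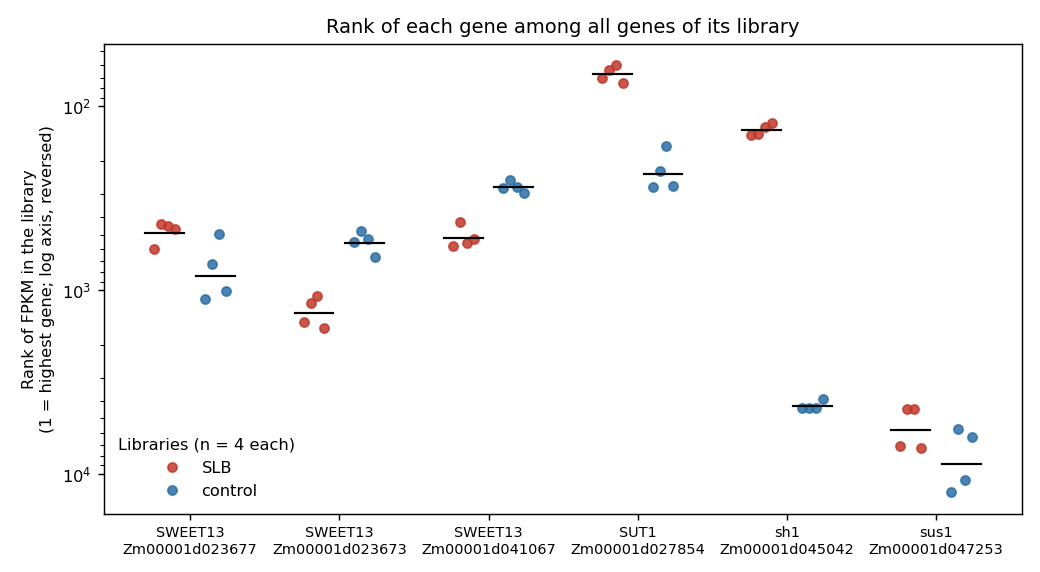
Rank of FPKM among all genes of a library (1 is the highest gene, log axis reversed so that higher levels are at the top), with 1 point per library, SLB left of control, and black lines at the mean ranks. The rank of sh1 is 124 to 144 in SLB libraries and 3941 to 4405 in controls, and both falling SWEET13 copies rank lower in every SLB library than in any control.

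Relative to the median of all tested genes, the log2 fold change as deposited was 3.84 for sh1, 0.71 for sus1, -0.38 for SUT1, -0.47 for SWEET13 Zm00001d023677, -2.21 for Zm00001d041067 and -2.29 for Zm00001d023673. On that footing all 4 source genes lay below the typical gene and the 2 sucrose synthases above it. SUT1 and Zm00001d023677 also lay below the typical gene after median-ratio scaling (-0.52 and -0.61, against a median of 0.02). The same held with equal totals (1.58 and 1.48, against a median of 1.69). With quantile normalization both lay above the typical gene, whose median was then 0.12. The place of these 2 source genes thus depended on the scaling, while the signs of the other 4 genes did not turn under any of the 4 scalings.

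**Figure D5:**
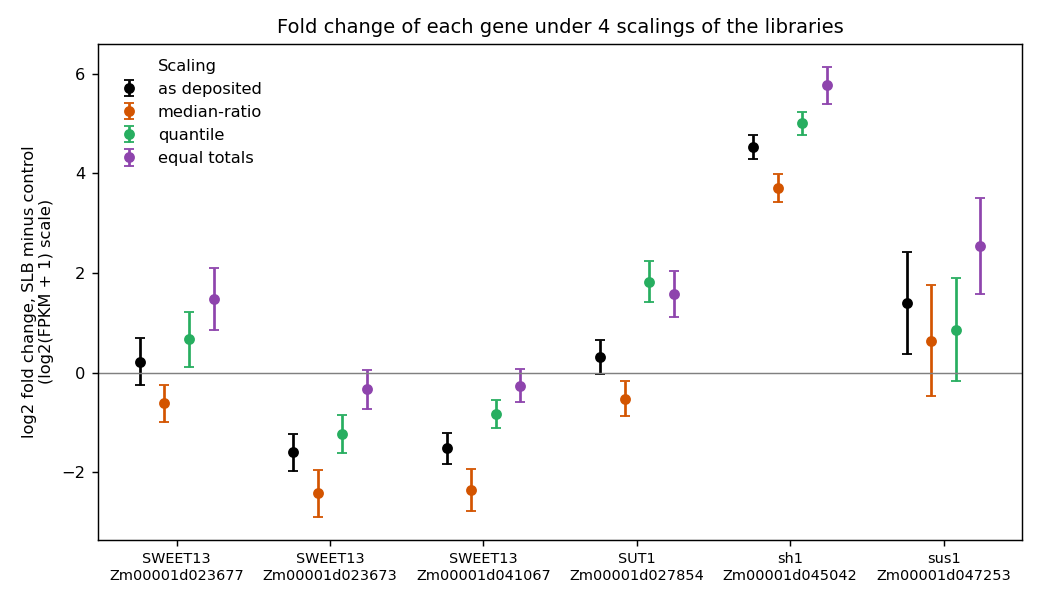
Log2 fold change (SLB minus control, log2(FPKM + 1) scale) of the 6 genes with 95% intervals from limma, for the values as deposited and 3 rescalings. For sh1 the 4 estimates lie between 3.71 and 5.77, while SUT1 and the SWEET13 copy Zm00001d023677 lie below 0 after median-ratio scaling and above 0 in the others.

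Within groups the genes varied to different degrees. The SD of log2(FPKM + 1) was 0.11 in SLB libraries and 0.10 in controls for sh1, and 0.47 in SLB libraries and 0.99 in controls for sus1. The median over all tested genes was 0.20 in SLB libraries and 0.26 in controls. SWEET13 Zm00001d023677 had an SD of 0.14 in SLB libraries and 0.43 in controls, and its highest control, replicate 3, was also the highest control for SUT1. The same library had the lowest value of Zm00001d041067 and the lowest summed FPKM among controls, and the part of the scale in this was not tested.

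Profiles over the 8 libraries were compared by their root mean square distance on the log2(FPKM + 1) scale, each gene centred on its own mean. Zm00001d023673 and Zm00001d041067 were 0.16 apart, and Zm00001d023677 and SUT1 were 0.19 apart, the closest pairs among the 6 genes. Such a distance includes the difference between groups. The log2 fold changes were -1.59 and -1.52 in the first pair, and 0.22 and 0.32 in the second. The median distance over all tested genes was not computed for Zm00001d023677 or SUT1. Outside the set, the 2 genes most like sh1 were Zm00001d028653 (distance 0.10, log2 fold change 4.55) and Zm00001d039079 (distance 0.13, log2 fold change 4.49), against a median distance of 1.94 over all tested genes. The mean FPKM of Zm00001d028653 was 230.0 ± 9.33 in SLB libraries and 8.86 ± 0.822 in controls, and that of Zm00001d039079 was 183 ± 10.7 in SLB libraries and 7.21 ± 0.928 in controls (SD, n = 4 each). The 2 genes most like Zm00001d023673, the member with the lowest fold change, were Zm00001d040117 (distance 0.12, log2 fold change -1.58) and Zm00001d039273 (distance 0.14, log2 fold change -1.42), against a median distance of 1.25. Zm00001d040117 averaged 0.566 ± 0.192 FPKM in SLB libraries and 3.74 ± 1.1 FPKM in controls (SD, n = 4 each), so low that the added 1 FPKM weighs on its distance. Zm00001d039273 averaged 14.9 ± 1.82 FPKM in SLB libraries and 41.9 ± 5.44 FPKM in controls (SD, n = 4 each). The files do not pair these 4 identifiers with names.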

How the data were processed

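Leaf RNA was made into stranded Illumina libraries, per the labels' protocols. FPKM were deposited in a table with a column for each library. The submitters' processing notes name Trimmomatic 0.32 for read trimming and B73 RefGen_v4 as the genome build. Which aligner and quantifier were used, and how shared fragments were treated, is not given in the sources used here, and depth is unknown. Columns matched the sample titles, and 0 were left unused.

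Genes that reached 1 FPKM in 4 or more libraries were compared on log2(FPKM + 1), a scale that understates changes of low genes, with limma 3.58.1 in R 4.3.3 (trend, two-sided, Benjamini-Hochberg over 19407 genes). Ratios of 2 genes used no pseudocount and a two-sided exact permutation test over 70 assignments of libraries (Python 3.11.15). Of 7 planned ratios 6 were computed, since mn1 has values of 0. The limma fit was tested on simulated data.

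The genes and lists were chosen with earlier results of these data known. Named were the 7 genes and, for those with the highest and lowest called fold change, the 2 nearest profiles each. Further sucrose genes and cell type markers had been listed by symbol. The RefSeq table (assembly Zm-B73-REFERENCE-NAM-5.0, 49888 entries) matched 0 identifiers of the FPKM table, so these lists had 0 members and no result. Alternatives were pseudocount, filter, scaling, variance model, a replicate block, and each library left out in turn. In scaling and leave-one-out alternatives the tested genes stayed those chosen on the deposited values.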

Additional observations from a re-analysis of the deposited data

Results flagged for a closer look

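In 1 of 30 groups of 4 values checked, a single library stood far from the other 3, where chance gives about 1 in 20. This was mn1 (Zm00001d003776) in SLB libraries, with 0.05 FPKM in replicate 4 and 0 in the others. Since the others share the value 0, this marks no more than a first detection.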

How the results depend on the processing

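The 16 values with alternatives were recomputed 240 times in all, and 206 times they kept their direction and their side of the threshold or, for counts, stayed within 1.5 times. Counts of falling genes moved to 7455 with median-ratio scaling and 2340 with equal totals. For SWEET13 Zm00001d023677 the log2 fold change was -0.61 (median-ratio), 0.68 (quantile) and 1.48 (equal totals), and for SUT1 it was -0.52, 1.82 and 1.58. With equal totals, Zm00001d023673 at -0.34 and Zm00001d041067 at -0.26 missed the threshold, as did sus1 at 0.64 (median-ratio) and 0.87 (quantile). The cause was not tested. The number of members called stayed at 4 or 5, though not for the same members. No pseudocount, filter or variance model changed a member's call.

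Leaving out 1 library gave log2 fold changes of 0.09 to 0.40 for Zm00001d023677 (adjusted p from 0.0511 to 0.683), 0.25 to 0.42 for SUT1 and 1.01 to 1.71 for sus1. The log2 differences of ratios were then 1.64 to 2.06 (Zm00001d023677 over Zm00001d023673), 1.57 to 2.01 (over Zm00001d041067), 2.65 to 3.46 (sh1 over sus1) and -4.38 to -4.16 (SUT1 over sh1). With 3 libraries in the SLB group their adjusted p missed the threshold, at up to 0.0857, where the smallest p of a single ratio is 0.0286.

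Between libraries of the same number, deviations from group means correlated at 0.0485, 0.0152, 0.126 and 0.112. Replicates 3 and 4 correlated best with their own number in both directions, while replicates 1 and 2 did not. With this mixed result and low correlations, the numbers were not taken as pairs. A replicate block on that number gave 15617 called genes and no member's call changed. The ratios as blocked pairs kept their differences of 1.83, 1.75, 3.02 and -4.27, but 4 pairs allow no p under 0.125.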
